A study of Mus musculus with 24 samples.

Results

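Isolation under an enriched environment was examined by setting the 4 libraries titled SI_EE against the 4 titled GH_EE, 8 of the 24 libraries of the series, chosen by their titles alone. SI marks socially isolated mice, EE is the enriched environment of the series title, and the sources used here do not spell out GH. Bulk RNA was sequenced from the medial prefrontal cortex. Every library carries the genotype label 5xFAD, a mouse strain whose neuronal Thy1 promoter drives human APP with familial Alzheimer's disease mutations. Both groups carry the treatment label EE and the same batch date as the rest of the series, so isolation is read here on top of the 5xFAD background and the enrichment that both groups share. The remaining libraries form 4 further groups of 4, SI_Con and GH_Con without treatment and SI_WT and GH_WT in an arm titled WT. Age, sex and the length of housing are not given in the labels. Replicates are numbered 1 to 4. Whether they are separate mice is not stated, and the p-values speak only for the spread among libraries, which may be technical.

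The medial prefrontal cortex takes part in social behaviour, working memory and the control of stress responses. In rodents, housing without companions is known to alter myelination and inhibitory signalling in this region, while an enriched environment is known for raising neuronal activity, activity-dependent transcription and growth factor expression in cortex. In mice that deposit amyloid, microglia around plaques lose part of their homeostatic gene programme and switch on a plaque-associated one, and astrocytes become reactive. The comparison asks whether isolated and GH mice differ in these programmes when both have enrichment.

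Total counts ran from 34968646 to 37860026 in SI_EE and from 34559842 to 39361685 in GH_EE. Transcripts of the X-inactivation gene Xist and of Y-linked genes marked 3 libraries as male and 1 as female in SI_EE (replicate 4), and 2 as male and 2 as female in GH_EE (replicates 2 and 3 female). One library stood apart. SI_EE 1 lay at 136.4 on the first principal component, which held 14.32% of the variance, while the highest of the other 23 libraries lay at 38.66. Results are therefore given with all 8 libraries and again without SI_EE 1.

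SI_EE 1 held transcripts of cerebellum and little of several forebrain genes. Gabra6, a GABA receptor subunit of cerebellar granule cells, was at 338 CPM (read counts scaled to a common normalised library total) there and at no more than 1.13 CPM in the other 7 libraries. Pcp2, a Purkinje cell gene, was at 239 CPM in SI_EE 1 and at no more than 0.489 CPM in those 7. Of 17 cerebellar genes listed, 16 could be tested, and their summed level was 5564.6 CPM in SI_EE 1, 77.6 to 145 CPM in the other 3 libraries of SI_EE and 89.8 to 110 CPM in GH_EE. The forebrain gene Camk2a, a postsynaptic kinase of pyramidal cells, was at 499 CPM in SI_EE 1, against 2346, 2304 and 2226 CPM in SI_EE 2 to 4 and 2591, 2441, 2366 and 2392 CPM in GH_EE. Drd1, the dopamine D1 receptor of striatal and cortical neurons, was at 2.90 CPM in SI_EE 1 and at 38.9 CPM or more in the other 7. Both forebrain genes were thus far below the other libraries in the one library that held cerebellar transcripts.

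**Figure D1:**
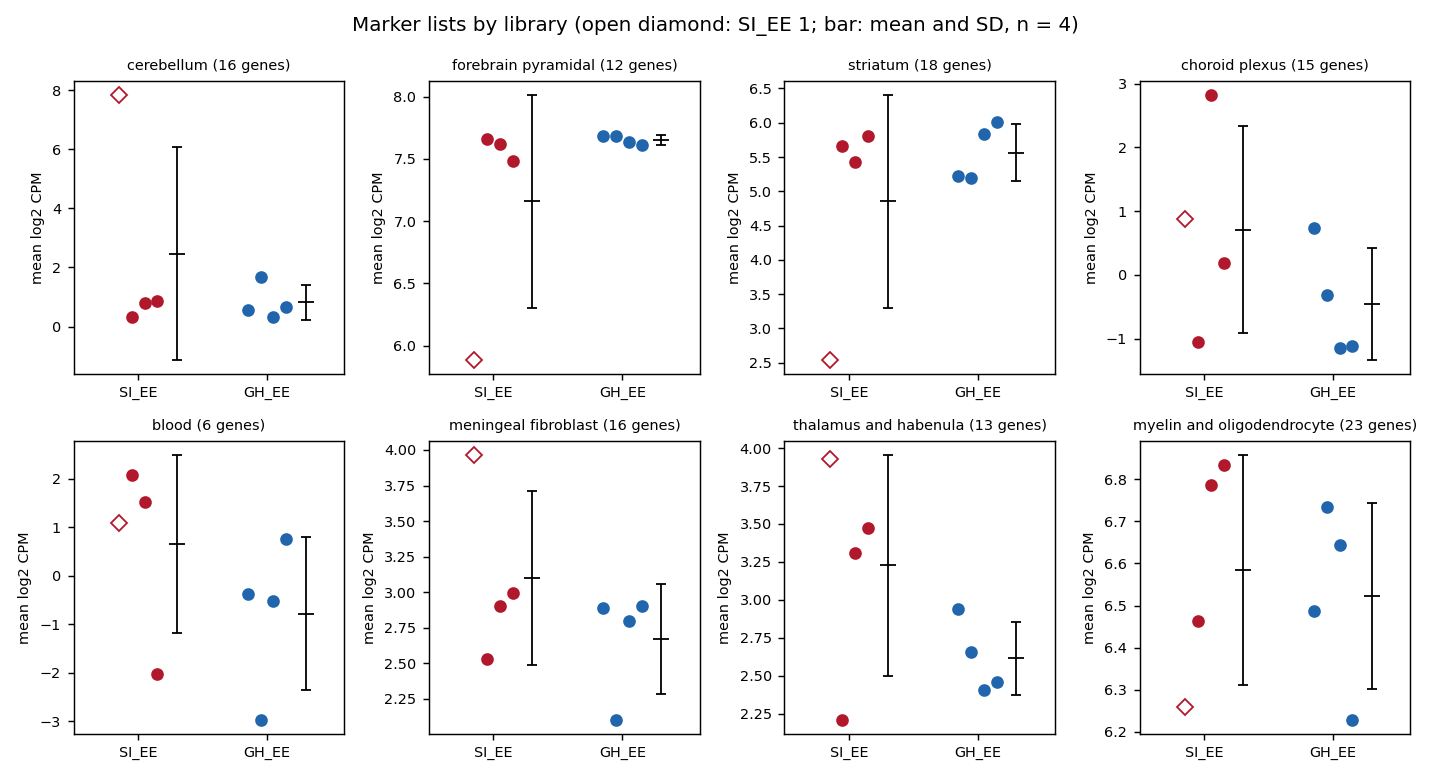
Mean log2 CPM of 8 marker gene lists (y axes) in each library of SI_EE (left, red) and GH_EE (right, blue), with SI_EE 1 as an open diamond and bars for the mean and SD over 4 libraries. SI_EE 1 is at 7.85 for the cerebellum list, against at most 1.69 in the other 7 libraries, and lowest for the forebrain pyramidal and striatum lists, while SI_EE 3 is highest for choroid plexus at 2.83.

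Transcripts typical of structures near the cortex also differed between libraries. Choroid plexus genes, which encode the secretory epithelium of the ventricles, were highest in SI_EE 3. Ttr, the thyroid hormone carrier that dominates that tissue, was at 68.5, 3.06, 525 and 14.3 CPM in SI_EE 1 to 4, against 47.3, 21.4, 2.21 and 1.82 CPM in GH_EE 1 to 4. The groups overlapped, with SI_EE 1 and SI_EE 3 above all of GH_EE and SI_EE 2 and SI_EE 4 inside its range. The summed level of the 15 choroid plexus genes was 203 to 1014.9 CPM in SI_EE and 231 to 320 CPM in GH_EE. The list's median log2 fold change was 1.68, and 0.39 without SI_EE 3. Without SI_EE 1 it was 1.87, and −0.13 when SI_EE 3 was also left out.

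Blood and thalamic transcripts were also spread unevenly. Of 8 blood genes, 6 could be tested with all libraries, and their sum was 2.003 to 48.3 CPM in SI_EE and 0.720 to 13.2 CPM in GH_EE. Hba-a1, a haemoglobin alpha chain, was at 7.11, 14.2, 6.47 and 0.411 CPM in SI_EE 1 to 4, against 3.18, 0.386, 2.92 and 3.57 CPM in GH_EE. It was higher in SI_EE 1 to 3 than in any GH_EE library and near the bottom in SI_EE 4. Haemoglobin genes have near-identical copies between which reads may have been split. The blood median was 1.59, and 1.67 without SI_EE 1, which became 0.66 when SI_EE 2 was also left out. The 13 thalamus and habenula genes summed to 207 to 767 CPM in SI_EE and 233 to 298 CPM in GH_EE, with SI_EE 1 the highest. Their median was 0.49, and 0.28 without SI_EE 4. It was 0.34 without SI_EE 1, which became 0.01 when SI_EE 3 was also left out, 0.20 with SI_EE 4, 0.21 with GH_EE 3 and 0.52 with SI_EE 2 left out. Meningeal fibroblast genes had 16 of 16 positive fold changes (median 0.54, or 0.32 without GH_EE 2) and 12 of 16 without SI_EE 1 (0.14). With SI_EE 1 out, this median ran from −0.05 without GH_EE 2 to 0.22 without GH_EE 4. Their mean log2 CPM was 3.97 in SI_EE 1, above the other 23 libraries, whose highest was 3.41, and their sum was 474 to 1149.1 CPM in SI_EE and 396 to 559 CPM in GH_EE. What neighbouring tissue was dissected along is not given in the labels, and the part of these transcripts in the results that follow was not tested.

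Across all genes, edgeR called 1 entry for isolation under enrichment, a pseudogene that was lower in SI_EE, and no protein-coding gene in either direction. The number of calls differed between tools, from 0 by limma-voom to 22 by DESeq2, whose calls included protein-coding genes. With all 8 libraries, edgeR's quasi-likelihood test with Benjamini-Hochberg adjustment over 20354 genes called 0 higher and 1 lower in SI_EE (0.00491% of genes tested), and the next smallest adjusted p was 0.202. Without SI_EE 1 it called 0 higher and 1 lower of 20718 (0.00483%), and the next smallest adjusted p was 1.0. An unadjusted p under 0.05 was reached by 1771 genes with all 8 libraries (8.7%), of which 1295 were higher (6.36%) and 476 lower (2.34%). Without SI_EE 1 it was reached by 770 genes (3.72%), of which 442 were higher (2.13%) and 328 lower (1.58%). DESeq2 called 22 genes with all 8 libraries and 13 without SI_EE 1, of which 9 were the same, and limma-voom called 0 in both. SI_EE 1 was the highest of all 24 libraries for 12 of the 22, among them Zic1 of the cerebellum list, and for 2 of the 13. Some DESeq2 calls had extreme log2 fold changes, such as −24.6 for Gm14308 and 23.5 for Gm49368 with all 8 libraries. Gm14308 was at 4.54 CPM or more in 1 library of GH_EE, and at no more than 0.261 CPM in the rest of GH_EE and in all of SI_EE. For genes at a mean of at least 1 CPM the median standard error of a log2 fold change was 0.19 with all 8 libraries and 0.18 without SI_EE 1. The spread behind these errors was estimated over every library in the fit, also those of the other groups. They are therefore not the resolution of the 8 libraries alone, and with the 2 groups fitted alone edgeR called 0 genes in both comparisons.

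Much of the longer list was lost without SI_EE 1. Of the 1295 genes that were higher at an unadjusted p under 0.05, SI_EE 1 was the highest of all 24 libraries for 945 (73.0%), while it was the highest for 18.45% of all genes tested. Without it, 328 of the 1295 still had an unadjusted p under 0.05, and 99 had the opposite sign. Of the 476 lower genes it was the lowest library for 310 (65.1%), against 19.32% of all genes tested, and 187 still had an unadjusted p under 0.05 without it. Both sets were chosen with SI_EE 1 in its group, which by itself favours an extreme there, so all genes tested are not a matched baseline. The number of genes with a log2 fold change beyond 1 in size was 432 with it and 162 without it.

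**Figure D2:**
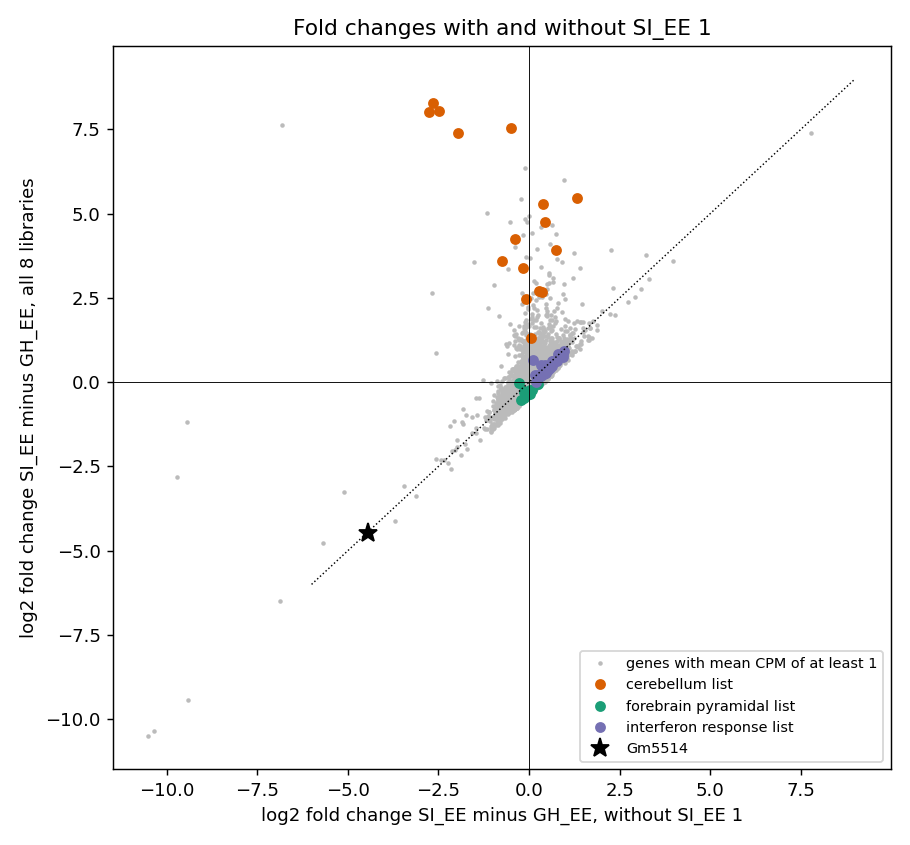
Log2 fold change of SI_EE minus GH_EE with all 8 libraries (y axis) against the same without SI_EE 1 (x axis) for genes at a mean of at least 1 CPM, with a dotted line of equality. Genes of the cerebellum list sit between 1.31 and 8.28 on the y axis and on both sides of 0 on the x axis, while Gm5514 (−4.48 and −4.43) lies near the line.

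The called entry was Gm5514 (ENSMUSG00000045104), annotated as a processed pseudogene, an intronless copy of a spliced messenger RNA. It lies on chromosome 19, 21937380 to 21938381, plus strand (GRCm38). The rule that picks genes by this comparison leaves out such symbols, and Gm5514 is described here because it was the one entry called, a choice made after its values were seen. Its parent is Ldhb, which encodes lactate dehydrogenase B, the subunit that predominates in tissues that oxidise lactate, on chromosome 6, 142490249 to 142507957, minus strand. A 120-base stretch of each is shown because the called difference depends on telling these sequences apart. The letters are from GENCODE M21 transcripts on GRCm38, read 5′ to 3′ in the sense of the transcript, and capitals mark the 5 bases that differ.
Gm5514: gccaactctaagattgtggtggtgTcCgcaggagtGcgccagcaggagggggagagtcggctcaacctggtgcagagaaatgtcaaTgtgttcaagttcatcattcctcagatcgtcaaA
Ldhb: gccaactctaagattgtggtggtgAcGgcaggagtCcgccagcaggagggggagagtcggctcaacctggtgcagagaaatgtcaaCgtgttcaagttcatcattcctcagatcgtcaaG
Over the 1002 aligned bases the sequences differ at 20, an identity of 98.0%, and 527 of the 972 stretches of 31 bases in Gm5514 (54.2%) also occur in Ldhb.

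Gm5514 was at 0.799, 1.15, 0.639 and 1.04 CPM in SI_EE 1 to 4, against 26.1, 27.9, 0.965 and 26.3 CPM in GH_EE 1 to 4. GH_EE 1, 2 and 4 were high and GH_EE 3 lay inside the range of SI_EE, so the groups overlapped. In the 16 libraries of the other 4 groups it was at 0.607 to 1.32 CPM, so that 3 libraries of GH_EE held all of its high values in the series. The log2 fold change was −4.48 (SE 0.59, adjusted p = 0.00285 by edgeR's quasi-likelihood test) and −4.43 without SI_EE 1 (SE 0.68, adjusted p = 0.0483). With SI_EE 1 out, the call was lost when any of SI_EE 2 to 4 or GH_EE 1, 2 or 4 was also left out (edgeR adjusted p 0.122 to 0.586), and it was kept without GH_EE 3 (1.18e-09). Ldhb itself was at 489, 424, 297 and 291 CPM in SI_EE 1 to 4, against 384, 305, 312 and 392 CPM in GH_EE, with overlapping groups and a log2 fold change of 0.11 (−0.05 without SI_EE 1). How reads that match both sequences were assigned is not given in the sources used here, and the value of Gm5514 is therefore uncertain.

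Further entries that share exons with a neighbour varied widely between libraries. Pdxp, the pyridoxal phosphate phosphatase, was at 6.64, 139, 122 and 4.58 CPM in SI_EE 1 to 4, against 5.06, 5.07, 7.35 and 5.07 CPM in GH_EE. Gm49510, which shares 45.1% of the exonic bases of Pdxp, was at 86.5, 1.75, 0 and 68.0 CPM in SI_EE, against 78.2, 75.5, 76.5 and 78.6 CPM in GH_EE. The 2 libraries that were high for Pdxp were thus the 2 that were near 0 for its partner, and the sums of both overlapped between the groups (72.6 to 141 CPM in SI_EE, 80.6 to 83.8 CPM in GH_EE). Pagr1a, a subunit of a histone methyltransferase complex, was at 26.7 CPM in GH_EE 1 and at 0.0274 to 3.78 CPM in the other 7 libraries, and Gm42742, which covers 98.7% of its exonic bases, was lowest in GH_EE 1, at 4.04 CPM. Without SI_EE 1, DESeq2 called Pdxp higher and Pagr1a lower (adjusted p = 0.0276 and 0.000399), and edgeR called neither. Glcci1, a glucocorticoid-induced gene, was at 11.7, 15.9, 10.8 and 4.77 CPM in SI_EE, against 31.03, 56.4, 60.3 and 64.7 CPM in GH_EE. It shares 69.8% of its exonic bases with Gm45062, which was at 0, 60.3, 25.7 and 48.9 CPM in SI_EE, against 54.4, 0, 0 and 0 CPM in GH_EE. Its groups did not overlap (log2 fold change −2.30, SE 0.63, and −2.35 without SI_EE 1, SE 0.75, neither called), while the sums of both entries overlapped, at 11.7 to 76.1 CPM in SI_EE and 56.4 to 85.4 CPM in GH_EE.

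**Figure D3:**
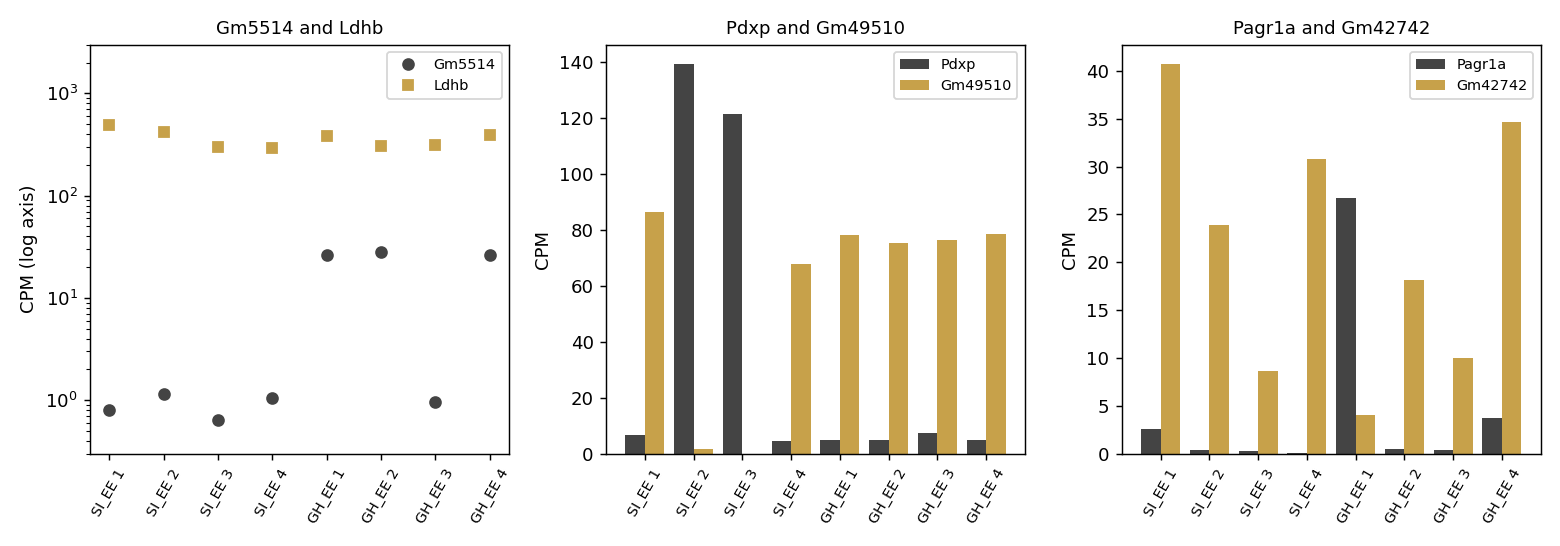
CPM of Gm5514 and Ldhb (points, log axis), of Pdxp and Gm49510, and of Pagr1a and Gm42742 (bars from 0) in each library, with SI_EE 1 to 4 left of GH_EE 1 to 4. Gm5514 is near 1 CPM in 5 libraries and between 26.1 and 27.9 CPM in 3, and Pdxp is high only in the 2 libraries where Gm49510 is at 1.75 and 0.

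No other named gene was called by edgeR, and the values that follow are descriptive. Mthfd2, a mitochondrial enzyme of one-carbon folate metabolism, had higher values in SI_EE. It was at 17.5, 10.4, 12.1 and 9.90 CPM in SI_EE 1 to 4, against 5.24, 6.10, 4.79 and 7.96 CPM in GH_EE 1 to 4. Every library of SI_EE was above every library of GH_EE, which holds for 2.44% of all genes tested. The log2 fold change was 1.05 (SE 0.23, edgeR adjusted p = 0.372) and 0.83 without SI_EE 1 (SE 0.22). DESeq2 called it with all 8 libraries (adjusted p = 0.0127) and did not call it without SI_EE 1.

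Chac1, which degrades glutathione and is a target of the amino acid stress response together with Mthfd2, was at 7.29, 10.7, 8.53 and 10.04 CPM in SI_EE 1 to 4, against 3.83, 3.70, 4.14 and 7.58 CPM in GH_EE 1 to 4. GH_EE 4 was above SI_EE 1, and without SI_EE 1 the groups did not overlap, as for 3.73% of all genes tested. Its log2 fold change was 0.92 (SE 0.26) and 1.01 without SI_EE 1 (SE 0.28). Tob1, an antiproliferative protein that binds the deadenylation machinery, was at 45.6, 44.0, 35.9 and 32.3 CPM in SI_EE, against 26.5, 28.6, 22.4 and 26.3 CPM in GH_EE. The groups did not overlap, at 0.61 (SE 0.14) and 0.52 (SE 0.15) on the log2 scale. Col5a3, a fibrillar collagen chain, was at 9.26, 4.56, 2.48 and 3.92 CPM in SI_EE, against 1.82, 1.47, 1.67 and 0.820 CPM in GH_EE. Its groups did not overlap either, SI_EE 1 was the highest, and the log2 fold change was 1.81 (SE 0.41) and 1.33 without SI_EE 1 (SE 0.38). SI_EE 1 was also the highest library for the 16 meningeal fibroblast genes, whose part in this value was not tested. DESeq2 called Col5a3 with all 8 libraries (adjusted p = 0.0127) and did not call it without SI_EE 1.

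Of the 10 genes with the smallest p among those higher with all 8 libraries, 7 had by far their highest value in SI_EE 1. En2 and Mab21l1, developmental regulators of the cerebellar list, were at 84.9 and 53.1 CPM there and at no more than 1.53 and 0.639 CPM elsewhere among the 8. Arhgef33 was at 87.2 CPM in SI_EE 1, Ptpn22 at 75.2, Il20rb at 54.7, Rnf182 at 44.8 and Shisa8 at 30.8. Without SI_EE 1 the log2 fold changes of Ptpn22 and Il20rb were 0.08 and 0.01, against 4.44 and 4.94 with it. That of Rnf182, a brain-expressed ubiquitin ligase, was 0.47 (SE 0.15), against 1.24 with it, and its groups did not overlap in either case.

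The genes with lower values in SI_EE that are named here had negative fold changes with and without SI_EE 1. Mastl, a kinase that restrains protein phosphatase 2A at mitosis, was at 0.948, 0.873, 0.799 and 0.494 CPM in SI_EE, against 1.31, 1.57, 1.59 and 1.82 CPM in GH_EE. The groups did not overlap, as for 1.78% of genes tested with all 8 libraries and 2.93% without SI_EE 1 (log2 fold change −1.01, SE 0.25, and −1.12 without SI_EE 1, SE 0.28). Dtnb, a dystrobrevin of neuronal dystrophin complexes, was at 28.5, 34.6, 35.8 and 31.4 CPM in SI_EE, against 37.5, 39.2, 43.4 and 42.0 CPM in GH_EE, again without overlap (−0.32, SE 0.08, and −0.26, SE 0.08). Me3, a mitochondrial malic enzyme, was at 32.1 to 53.2 CPM in SI_EE and 59.1 to 72.1 CPM in GH_EE (−0.59 and −0.46), and Osbpl5, a lipid transfer protein, at 15.5 to 25.2 and 26.6 to 31.2 CPM (−0.45 and −0.32). Both had no overlap, and SI_EE 1 was the lowest library for each. Nrf1, a regulator of nuclear genes for mitochondrial respiration, was at 9.36 to 10.6 CPM in SI_EE and 15.3 to 16.3 CPM in GH_EE 1 to 3, with GH_EE 4 at 9.96 inside the range of SI_EE (−0.52 and −0.54). Tgfbr1, a receptor for transforming growth factor beta, was at 13.3, 10.8, 14.01 and 33.0 CPM in SI_EE, against 29.3, 33.7, 37.8 and 25.5 CPM in GH_EE, where SI_EE 4 alone reached the GH_EE range (−0.83 and −0.72).

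**Figure D4:**
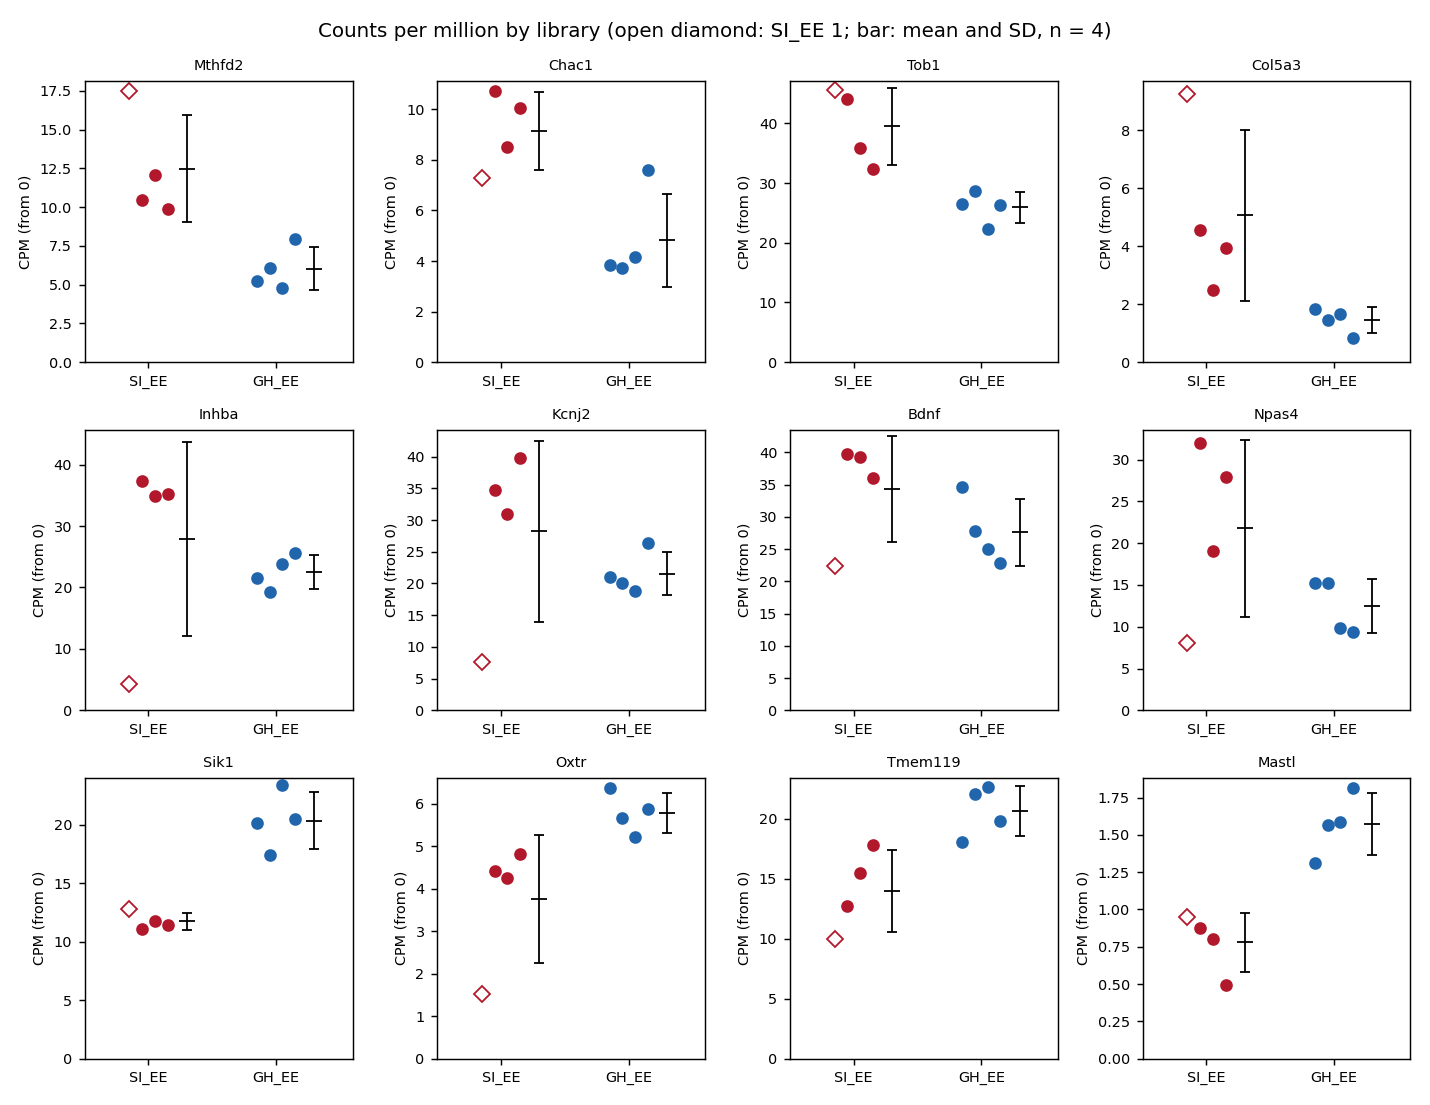
CPM of 12 genes (y axes from 0) in each library of SI_EE (left, red, SI_EE 1 as an open diamond) and GH_EE (right, blue), with bars for the mean and SD over 4 libraries. Tob1, Mthfd2 and Col5a3 are higher and Sik1, Oxtr, Tmem119 and Mastl lower in all 4 libraries of SI_EE, while Inhba, Kcnj2 and Npas4 are higher in SI_EE 2 to 4 and lowest in SI_EE 1.

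Activity-dependent genes had a mixed pattern that turned on SI_EE 1. Of 17 immediate early transcription factors, 3 had positive and 14 negative fold changes with all 8 libraries (median −0.17), and 7 and 10 without SI_EE 1 (−0.09). Of 22 activity-regulated effectors, 10 were positive and 12 negative (median −0.06), and 14 and 8 without SI_EE 1 (0.08), where the median over all genes was 0.02 with and 0.00 without it. No member of either list was called. Inhba, the activin beta A subunit induced by synaptic activity, was at 4.29, 37.4, 34.9 and 35.1 CPM in SI_EE 1 to 4, against 21.6, 19.3, 23.9 and 25.5 CPM in GH_EE. SI_EE 2 to 4 were above all of GH_EE and SI_EE 1 below all of it, and the log2 fold change was 0.30 (SE 0.36) with all 8 libraries and 0.66 (SE 0.16) without SI_EE 1. Kcnj2, an inward rectifier potassium channel, had the same order, with 7.56, 34.7, 31.01 and 39.7 CPM in SI_EE, against 20.999, 20.1, 18.8 and 26.4 CPM in GH_EE (0.38 and 0.70).

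Bdnf, the brain-derived neurotrophic factor, was at 22.3, 39.8, 39.3 and 36.0 CPM in SI_EE 1 to 4, against 34.7, 27.9, 25.0 and 22.8 CPM in GH_EE 1 to 4. SI_EE 2 to 4 were the 3 highest libraries and SI_EE 1 the lowest (log2 fold change 0.31, SE 0.19, and 0.47, SE 0.18, without SI_EE 1). Npas4, a transcription factor induced by calcium influx, was at 8.11, 32.0, 19.0 and 27.9 CPM in SI_EE, against 15.2, 15.2, 9.87 and 9.43 CPM in GH_EE, with the same order of groups (0.80 and 1.08). Fos and Arc, which are induced by the same stimuli, did not separate. Fos was at 29.3, 32.2, 32.1 and 22.8 CPM in SI_EE, against 42.1, 33.9, 29.5 and 23.1 CPM in GH_EE, and Arc at 84.1, 367, 288 and 166 CPM in SI_EE, against 404, 311, 221 and 251 CPM in GH_EE. Sik1, a kinase induced by cAMP signalling that restrains CREB coactivators, was at 12.8, 11.1, 11.8 and 11.4 CPM in SI_EE, against 20.1, 17.5, 23.4 and 20.5 CPM in GH_EE. Its groups did not overlap with or without SI_EE 1 (−0.79, SE 0.25, and −0.84, SE 0.28), so that it lay on the other side from Bdnf and Npas4.

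Among 28 social and stress neuropeptide genes, 26 could be tested with all 8 libraries and 0 were called. Oxtr, the oxytocin receptor, was at 1.52, 4.42, 4.26 and 4.83 CPM in SI_EE 1 to 4, against 6.37, 5.66, 5.22 and 5.89 CPM in GH_EE. Every library of SI_EE was below every library of GH_EE. The log2 fold change was −0.63 (SE 0.23), or −0.37 (SE 0.16) without SI_EE 1. Oxtr was the only member below without overlap (3.85% of members, and 3.70% without SI_EE 1). Among all genes tested this held for 1.78%, or 2.93% without SI_EE 1. The list had 6 positive and 20 negative fold changes (median −0.20), and 13 and 14 without SI_EE 1 (−0.004). Npy2r, a presynaptic receptor for neuropeptide Y, was at 1.997, 4.18, 3.17 and 2.74 CPM in SI_EE, against 2.38, 2.06, 2.52 and 1.67 CPM in GH_EE (0.48 and 0.63). Without SI_EE 1 its SI_EE libraries were all above GH_EE, as for 3.73% of all genes tested. The 20 glucocorticoid response genes had 9 positive and 11 negative fold changes and a median of −0.06, and 10 and 10 without SI_EE 1 (−0.01). Among the 18 circadian genes tested, Bhlhe41, a repressor of the clock, was at 48.1 to 52.4 CPM in SI_EE and 33.9 to 44.6 CPM in GH_EE (0.34 and 0.36). Clock, a core activator, was at 78.7 to 109.8 CPM in SI_EE and 114 to 151 CPM in GH_EE (−0.47 and −0.39), and neither gene's groups overlapped.

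Synaptic gene lists had negative medians, which were nearer 0 without SI_EE 1. Of 36 glutamate receptor and scaffold genes, 8 were positive and 28 negative (median −0.20), and 7 and 29 without SI_EE 1 (−0.05). Presynaptic release genes had 4 positive and 20 negative (−0.17), and 5 and 19 without it (−0.06), and GABA receptor genes 1 and 14 (−0.20), and 2 and 13 without it (−0.07). The upper and deep layer pyramidal lists had medians of −0.24 and −0.26, and −0.11 and −0.03 without SI_EE 1. Stx1a, a plasma membrane SNARE of vesicle release, was at 53.1, 213, 202 and 201 CPM in SI_EE, against 235, 257, 249 and 227 CPM in GH_EE. Its groups did not overlap (−0.54, and −0.24 without SI_EE 1). Acan, the aggrecan core protein of perineuronal nets, was at 3.92, 6.90, 5.57 and 6.91 CPM in SI_EE, against 7.998, 7.79, 8.28 and 8.52 CPM in GH_EE, also without overlap (−0.49, SE 0.24, and −0.34, SE 0.25). In bulk tissue, fewer cells of a type and less RNA per cell cannot be told apart.

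Myelin genes had small fold changes that were mostly positive once SI_EE 1 was left out. Of 23 myelin and oligodendrocyte genes, 14 were positive and 9 negative (median 0.07), and 22 and 1 without SI_EE 1 (median 0.18), with 0 called in both. Without SI_EE 1, 5 of the 23 (21.7%) had every SI_EE library above every GH_EE library, against 3.73% of all genes tested. Fa2h, which makes the hydroxylated lipids of myelin, was at 40.2, 56.8, 57.2 and 63.6 CPM in SI_EE 1 to 4, against 45.7, 50.6, 47.5 and 38.3 CPM in GH_EE (0.26, SE 0.15, and 0.37, SE 0.14). Mobp, a structural protein of the myelin sheath, was at 1012, 1270, 1332 and 1335 CPM in SI_EE, against 1079, 1204, 1057 and 1027 CPM in GH_EE (0.18 and 0.26). Both were highest in SI_EE 2 to 4, and SI_EE 1 was inside the GH_EE range for Fa2h and below it for Mobp. Mbp, the major myelin basic protein, was at 420, 509, 602 and 625 CPM in SI_EE, against 564, 599, 566 and 462 CPM in GH_EE, and the groups overlapped (−0.02 and 0.07). Mean log2 CPM of the list in single libraries also overlapped, at 6.26 to 6.83 in SI_EE and 6.23 to 6.73 in GH_EE. With SI_EE 1 kept, the median ran from −0.02 without SI_EE 3 to 0.15 without GH_EE 2, and was 0.01 without SI_EE 4 or GH_EE 4, 0.04 without GH_EE 1 and 0.13 without GH_EE 3. With SI_EE 1 out, it was 0.10 without SI_EE 3 (17 of 23 positive), 0.07 without SI_EE 4 (15 of 23) and 0.08 without GH_EE 4.

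Most homeostatic microglial genes had negative fold changes, to an extent that turned on single libraries. Of 14 listed, 1 was positive and 13 negative with all 8 libraries (median −0.35), and 2 and 12 without SI_EE 1 (−0.16), with 0 called. Tmem119, a surface protein of resident microglia, was at 9.98, 12.7, 15.5 and 17.8 CPM in SI_EE 1 to 4, against 18.1, 22.1, 22.6 and 19.8 CPM in GH_EE. It was the only 1 of the 14 members whose groups did not overlap, where 1.78% of all genes tested lay below without overlap with all 8 libraries and 2.93% without SI_EE 1 (−0.56, SE 0.17, and −0.44, SE 0.17). P2ry12, the purinergic receptor that guides microglial processes, was at 13.4, 14.1, 23.5 and 17.7 CPM in SI_EE, against 25.8, 33.4, 31.6 and 19.4 CPM in GH_EE, with SI_EE 3 above GH_EE 4 (−0.69, SE 0.29, and −0.59, SE 0.32). The mean log2 CPM of the list overlapped between groups, at 2.81 to 3.96 in SI_EE and 3.58 to 4.09 in GH_EE. Its median was −0.55 without SI_EE 4 when SI_EE 1 was kept. With SI_EE 1 out, it was −0.0008 without SI_EE 2 (7 of 14 positive), −0.30 without SI_EE 4 and −0.06 without GH_EE 3. With sex as a covariate the median was −0.26, and −0.09 without SI_EE 1.

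Plaque-associated microglial genes did not separate by housing, and those given here were highest in the female libraries. Cst7, a cystatin that plaque microglia induce, was at 0.2496, 0.246, 2.90 and 5.71 CPM in SI_EE 1 to 4, against 0.428, 7.79, 6.84 and 0.527 CPM in GH_EE 1 to 4. The 3 female libraries, SI_EE 4, GH_EE 2 and GH_EE 3, were the 3 highest. Trem2, the lipid receptor that drives this state, had the same 3 libraries on top, at 4.42, 7.07, 11.9 and 15.5 CPM in SI_EE, against 6.5003, 15.02, 15.5 and 7.20 CPM in GH_EE. The log2 fold changes between the housing groups were −0.79 (SE 1.06) for Cst7 and −0.19 (SE 0.44) for Trem2. The 24 genes of the list had a median of −0.10, and −0.05 without SI_EE 1, which turned to 0.09 and 0.05 with sex as a covariate. With each library left out in turn the median ran from −0.29 without SI_EE 4 to 0.03 without GH_EE 2, and with SI_EE 1 also out from −0.31 without SI_EE 4 to 0.09 without GH_EE 2. Gfap, the astrocyte filament protein that rises in reactive astrocytes, was at 144, 88.7, 226 and 372 CPM in SI_EE, against 120, 249, 295 and 116 CPM in GH_EE, and the female libraries were again the 3 highest (0.09, SE 0.44).

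Interferon response genes lay on the positive side. All 24 tested had positive fold changes with all 8 libraries (median 0.45) and 23 of 24 without SI_EE 1 (median 0.46), where 52.9% and 49.8% of all genes tested did, and 0 were called. No member had groups that did not overlap. Ifit3, an antiviral effector, was at 20.9, 9.91, 15.5 and 30.6 CPM in SI_EE 1 to 4, against 7.65, 8.67, 15.3 and 11.4 CPM in GH_EE (0.84, SE 0.36, and 0.79, SE 0.39). Oasl2, an oligoadenylate synthetase relative, was at 5.69, 3.41, 8.21 and 12.8 CPM in SI_EE, against 3.48, 4.86, 6.41 and 2.25 CPM in GH_EE (0.82 and 0.93). For both, SI_EE 4, a female library, was the highest. The list's median was 0.10 without SI_EE 4 when SI_EE 1 was kept and 0.17 when both were left out, 0.70 without SI_EE 1 and SI_EE 2, and 0.58 with sex as a covariate. Of 15 antigen presentation genes tested, 12 had positive and 3 negative fold changes (median 0.19), and 8 and 7 without SI_EE 1 (0.09). Tap2, a peptide transporter of this list, was at 10.6, 8.98, 9.72 and 9.93 CPM in SI_EE, against 4.73, 6.64, 8.79 and 6.97 CPM in GH_EE (0.53, SE 0.17, and 0.49, SE 0.18). It was the only member above without overlap, as 2.44% of all genes tested were, or 3.73% without SI_EE 1. Without SI_EE 1, 1 other member lay below without overlap.

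Reactive astrocyte genes were also mostly positive. Of the 16 tested with all 8 libraries 14 were positive (median 0.36), and 13 of 17 without SI_EE 1 (median 0.33), with 0 called. The median was 0.24 without GH_EE 2 when SI_EE 1 was kept, and 0.20 without both SI_EE 1 and SI_EE 3. Steap4, a metalloreductase of inflamed tissue, was at 0.699, 0.546, 0.559 and 0.439 CPM in SI_EE 1 to 4, against 0.321, 0.309, 0.0567 and 0.0586 CPM in GH_EE. Its groups did not overlap, at levels that rest on few counts. Vim, the filament protein vimentin, was at 102, 27.5, 36.1 and 31.4 CPM in SI_EE, against 21.6, 20.5, 33.2 and 25.7 CPM in GH_EE, with SI_EE 1 the highest (0.97, and 0.32 without SI_EE 1). Nuclear genes of oxidative phosphorylation lay on opposite sides of 0 with and without SI_EE 1, with 58 positive and 26 negative fold changes when it was kept (median 0.04) and 18 and 66 without it (median −0.07). Ribosomal protein genes did the same, with 59 and 28 (0.04) and then 26 and 61 (−0.06).

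The human APP entry, which stands for the transgene, was at 334, 1817, 3240 and 3716 CPM in SI_EE 1 to 4, against 1812, 2650, 3833 and 1873 CPM in GH_EE 1 to 4. SI_EE 1 was the lowest library, and the others overlapped (log2 fold change −0.17, SE 0.47, and 0.19, SE 0.36, without SI_EE 1). Mouse App was at 756, 1409, 1488 and 1492 CPM in SI_EE, against 1596, 1499, 1490 and 1408 CPM in GH_EE, and Thy1, whose promoter drives the transgene, at 637, 1330, 1627 and 1816 CPM in SI_EE, against 1191, 1610, 2011 and 1274 CPM in GH_EE. Both were also lowest in SI_EE 1, and reads shared between the human and mouse copies could have been counted under either.

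**Figure D5:**
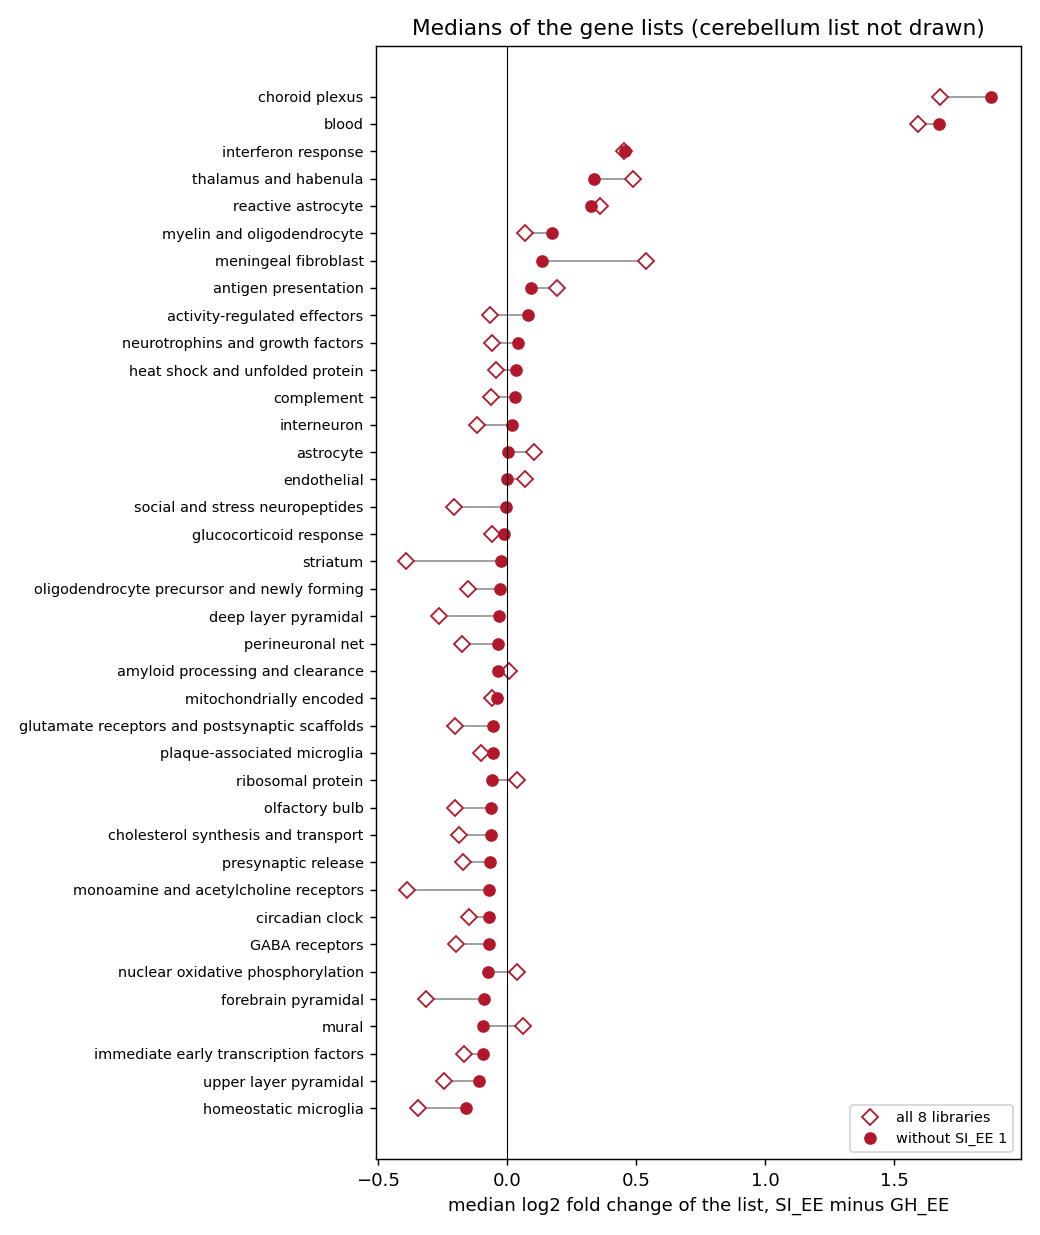
Median log2 fold change of SI_EE minus GH_EE (x axis) over the tested members of each gene list (rows, the cerebellum and sex-linked lists left out), as open diamonds with all 8 libraries and filled circles without SI_EE 1. Choroid plexus (1.68 and 1.87), blood (1.59 and 1.67) and interferon response genes (0.45 and 0.46) lie to the right, and homeostatic microglia (−0.35 and −0.16) to the left.

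Whether isolation differed under enrichment from isolation elsewhere was tested as a difference of differences. Against isolation without treatment (SI_Con minus GH_Con), no gene passed edgeR's threshold (0 called, also without SI_EE 1). An unadjusted p under 0.05 was reached by 1576 genes (7.74%), or 1322 (6.38%) without SI_EE 1. With SI_EE 1 kept, DESeq2 called 29. Against isolation in the WT arm (SI_WT minus GH_WT), edgeR again called 0, with 1438 genes (7.06%) below an unadjusted p of 0.05, or 1038 (5.01%) without SI_EE 1. With SI_EE 1 kept, DESeq2 called 39, and neither DESeq2 count was taken without it. The smallest edgeR adjusted p in both belonged to Gm5514, at 0.0717 and 0.425, whose high values occurred in GH_EE alone. With SI_EE 1 kept, Mthfd2 differed by 0.95 (SE 0.32) from its difference without treatment and by 0.63 (SE 0.32) from that in the WT arm. For Tob1 these values were 0.61 (SE 0.20) and 0.63 (SE 0.20), with neither gene called. Within SI_EE and GH_EE both genes were highest in SI_EE 1. For Sik1 the values, also with SI_EE 1 kept, were −1.28 (SE 0.35) and −0.34 (SE 0.35). Its level averaged 11.8 CPM in SI_EE, 15.9 in SI_Con and 14.1 in SI_WT, against 20.4 in GH_EE, 11.4 in GH_Con and 19.1 in GH_WT. For these genes the values without SI_EE 1 are not given.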

How the data were processed

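Bulk RNA sequencing of mouse medial prefrontal cortex gave 24 libraries in 6 groups of 4, grouped by title. The authors deposited 1 table of whole-number read counts per gene, not normalised as judged from the values. The build is mm10 per the submitters' processing notes; the sources used here do not give the aligner, counter, annotation or use of strand. Of 56750 entries, 52058 were paired with a symbol, and those without one held 0.410% of reads. Positions and sequences are from GENCODE M21 (GRCm38).

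Counts were tested with edgeR 4.0.16 in R 4.3.3 (quasi-likelihood test, TMM factors, filterByExpr on the group, robust), with all 24 libraries in 1 fit, and with 23 without SI_EE 1. The threshold was a Benjamini-Hochberg adjusted p under 0.05. The fits were tested on simulated data. CPM divides counts by TMM-scaled totals, and a prior count of 2 was added for log2 CPM. Sex was read from Xist and Y-linked transcripts.

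Members and the 40 gene lists were chosen with earlier results of these data known, some lists share genes, and lists are described without a test. Named genes came from 10 per direction and comparison (mean CPM of at least 1, no Gm, Rik or bare-ID symbols), those called first and then by smallest p, from up to 3 members of each list by p, from the 3 smallest p of each difference between isolation effects, and from a standing set around the transgene, glia, activity and neighbouring tissue. Further list members were named for their role or after their values were seen. Alternatives were DESeq2 1.42.0, limma-voom (limma 3.58.1), other scaling factors, no low-count filter, a fit of the 2 groups alone, sex as a covariate, a replicate block, and each library left out. One item is not reported here.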

Additional observations from a re-analysis of the deposited data

Results flagged for a closer look

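A library was looked at again where the gap to its nearest neighbour was a large share of its group's range. Of 174 groups of values examined, 29 held such a library. The rule would pick about 1 in 20 groups by chance if they were chosen blindly. Many genes here were chosen by their p with SI_EE 1 included or after their values were seen, and some lists share genes. The 29 can therefore not be set against that rate. SI_EE 1 was that library in 20 of them, GH_EE 4 in 4, GH_EE 1 and GH_EE 3 in 2 each and GH_EE 2 in 1. All values below are log2 CPM, for a list the mean over its genes. No explanation was tested.

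Among the lists, SI_EE 1 stood apart from the rest of SI_EE for upper layer pyramidal (5.69), deep layer pyramidal (4.29), forebrain pyramidal (5.88), striatum (2.53), cerebellum (7.85), activity-regulated effectors (4.90), social and stress neuropeptides (2.07), monoamine and acetylcholine receptors (2.30) and GABA receptors (6.17). In GH_EE, GH_EE 4 stood apart for astrocyte (7.46) and reactive astrocyte genes (2.46), GH_EE 2 for meningeal fibroblast genes (2.10) and GH_EE 1 for immediate early transcription factors (4.77).

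Among single genes, SI_EE 1 stood apart for En2 (6.41), Mab21l1 (5.73), Shisa8 (4.95), Ptpn22 (6.23), Rnf182 (5.49), Inhba (2.12), Kcnj2 (2.93), Pmepa1 (3.74), App (9.56), Gabra6 (8.40) and Pcp2 (7.90). GH_EE 4 stood apart for Nrf1 (3.32) and Chac1 (2.93), GH_EE 3 for Pdxp (2.89) and Gm5514 (0.0259), and GH_EE 1 for Zbed5 (3.90).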

How the results depend on the processing

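With all 8 libraries, the count of called genes (1 by edgeR) was 22 with DESeq2, 0 with limma-voom, 0 with the 2 groups fitted alone, and 1 to 3 with each library left out in turn, reaching 3 without SI_EE 3 and 2 without SI_EE 4. With SI_EE 1 left out (1 by edgeR) it was 13 with DESeq2, 0 with upper quartile factors, limma-voom, no low-count filter, the 2 groups alone or sex as a covariate, and 0 to 1 with a further library left out. That 1 call was Gm5514 without GH_EE 3. It was another entry without SI_EE 3 or SI_EE 4, where Gm5514 had an edgeR adjusted p of 0.273 and 0.3685. The tests of a difference between isolation effects (0 by edgeR) gave 29 and 39 calls with DESeq2, both with SI_EE 1 kept. Gm5514 stayed lower throughout, at a log2 fold change of −4.88 to −3.73 with all 8 libraries and −4.85 to −3.69 without SI_EE 1, but lost its call in 2 of 16 alternatives and in 12 of 15. Deviations from the group mean had correlations of −0.0056, −0.097, 0.0306 and −0.1148 between same-numbered libraries. The SI_EE mean includes SI_EE 1, which shifts the deviations of the whole group, so these values cannot settle whether replicate numbers pair the libraries. With the replicate block edgeR called 1 gene with all 8 libraries and 0 without SI_EE 1, and 0 in both differences. Of the lists, 15 of 40 medians changed sign under some alternative with all 8 libraries and 21 of 40 without SI_EE 1; the choroid plexus median was −0.13 without SI_EE 1 and SI_EE 3. With 4 and 3 libraries, small differences could not be resolved, and low genes rest on few counts.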

Other observations

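Female libraries had higher values of microglial genes than male ones within the 8, and the same held over the series, where 12 libraries were female. This contrast was chosen after the data were seen and was fitted with edgeR over all 24 libraries with the groups kept. SI_EE 1 was kept among the male libraries, and the contrast was not fitted without it. It held the lowest male value of Trem2 (4.42 CPM) and of the human APP entry (334 CPM). It did not for Cst7, whose lowest male value was 0.0857 CPM. Trem2 averaged 17.6 ± 7.92 CPM in female and 8.96 ± 3.49 CPM in male libraries (SD, n = 12 each; log2 fold change 0.91, SE 0.19, edgeR adjusted p = 0.0637). Tyrobp, its signalling adaptor, averaged 19.9 ± 7.22 CPM in female and 10.9 ± 3.87 CPM in male libraries (0.83, SE 0.18, adjusted p = 0.0851). Cst7 averaged 5.72 ± 3.58 CPM in female and 1.51 ± 1.86 CPM in male libraries (2.15, SE 0.52, adjusted p = 0.140). None of these passed the threshold, and the human APP entry, at 3172 ± 798 CPM in female and 2200 ± 1075 CPM in male libraries (0.58, SE 0.26, adjusted p = 0.733), did not either. In total 7 genes were called higher and 5 lower in female libraries, of which 5 lay outside the sex chromosomes. Of the 24 plaque-associated genes 22 had a positive difference (median 0.37), and of the 14 homeostatic ones all 14 (median 0.42), where the median over all genes was 0.01. The difference was not limited to microglial lists. All 24 interferon response genes were positive (median 0.53, 1 called higher in female libraries), as were 12 of 17 complement genes (0.25) and 11 of 15 antigen presentation genes (0.19). Since SI_EE held 1 female library and GH_EE 2, these values stand beside the microglial and interferon results above.

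Entries that split into a low and a high range were common enough to count. Of 13439 entries that reached 5 CPM, 49 fell into 2 ranges at least 8-fold apart over the 24 libraries. Of these, 5 were sex-linked, and of the remaining 44 there were 35 that split within the 8 libraries of SI_EE and GH_EE.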
